A study of Mus musculus with 146 samples.

Results

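The genes described here encode the proteins of the cytosolic ribosome, measured by Smart-seq2 in single germ cells of newborn mouse ovaries. Members were the rows whose name is Rpl, Rps, Rplp or Rpsp followed by a number and an optional suffix, with processed copies named -ps left out, which gave 86 of the 52697 rows listed. Of these, 51 belonged to the large subunit and 35 to the small subunit, and 82 were coding genes in the GENCODE M21 annotation. The other 4 were Rps12l1, Rps4l, Rps3a2 and Rps3a3, which that annotation does not type as coding. The 146 cells came from ovaries of C57/BL6J mice at age D0.5, shortly after birth, with no treatment or altered allele named. Cells were picked by mouth pipette, and cDNA libraries positive for Foxl2, a pregranulosa gene, had been removed before sequencing. Cells were kept where Ddx4, a germ cell RNA helicase, reached at least 1 TPM (transcripts per 1000000), which left out 1 cell. Its Ddx4 level was 0, and the lowest level among the cells kept was 7.49 TPM. The labels tie no cell to an animal, so the cells were treated as 1 sample. No p-value was computed, and the spread over cells is not an error between animals.

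Each cytosolic ribosome joins a small subunit, which reads the mRNA, to a large subunit, which forms peptide bonds. Its proteins are made in matched amounts by many separate genes scattered over the chromosomes. In mammals most of their mRNAs begin with a C followed by a run of pyrimidines, the 5′ terminal oligopyrimidine tract, through which mTOR and Larp1 adjust their translation. Growing oocytes are known to build up a store of ribosomes.

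The first transcribed bases of members that differ in their pattern are shown because they hold the shared tract or lack it at the annotated start. The sequences are RefSeq starts on GRCm38.p6, with 15 bases before the start and 15 from it, and the capitals mark a C at the first transcribed base with the C or T bases that follow it without a break.
Rpl28 (chr7:4792950-4792979, + strand): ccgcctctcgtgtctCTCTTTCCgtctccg
Rpl35 (chr2:39005117-39005146, - strand): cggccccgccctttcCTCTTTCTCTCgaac
Rpl38 (chr11:114668565-114668594, + strand): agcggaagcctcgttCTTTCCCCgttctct
Rps6 (chr4:86857353-86857382, - strand): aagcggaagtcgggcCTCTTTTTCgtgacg
Rps27 (chr3:90213634-90213663, - strand): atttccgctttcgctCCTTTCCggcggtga
Rplp0 (chr5:115559452-115559481, + strand): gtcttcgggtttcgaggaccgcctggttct
Rpl4 (chr9:64173372-64173401, + strand): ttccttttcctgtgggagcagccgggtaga
A tract was counted where a C at the annotated start was followed by at least 4 bases that are each C or T. RefSeq starts matched 62 members by symbol, with 74 starts, of which 13 starts (17.6%) held such a tract. Among all 32851 starts in the same table the share was 2.51%. A start that is annotated a few bases away from the true one would be missed, so this is a count of letters and not of functional tracts.

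Together the members took 5.07% ± 1.43 (SD over all cells kept) of a cell's TPM, from 0.86% to 10.1%, and 2.06% ± 0.632 of its estimated reads. Estimated reads per cell ranged from 4102560 to 27057611. A cell had at least 1 read for 71 to 85 of the 86 members, with a median of 84, and 53 members had a read in each cell kept. The mean was at least 1000 TPM for 17 members, from 100 to 1000 TPM for 51, and under 100 TPM for 18.

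The 5 members with the highest mean together took 20.8% of the summed mean. Rpl32, a large subunit protein, ranged from 12.3 to 8106 TPM with a median of 2665 TPM. Rps27l, a second copy of Rps27 known as a p53 target, had a median of 2175 TPM and a range of 20.5 to 6251 TPM. Rplp1, an acidic protein of the stalk that recruits elongation factors, had a median of 2068 TPM and a range of 2.72 to 6633 TPM. These 3 genes therefore stood at the top in the middle of the distribution while single cells had almost none. Rps14, near the mRNA exit side of the small subunit, had a median of 1865 TPM, and Rpl14, of the large subunit, of 1542 TPM.

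At the other end, the processed copies Rps3a2 and Rps3a3 averaged 0.27 and 0.527 TPM and were the 2 members under the minimum mean of 1 TPM that 84 members passed. Rpl3l, a form of Rpl3 known from striated muscle, averaged 1.31 TPM and lay just above that minimum. It had at least 1 read in 16 cells (11%, exact 95% binomial interval 6.44 to 17.3%, counting error only), and its highest cell had 36 TPM. Rpl12, at the base of the stalk, was low as listed, with a median of 5.19 TPM and a read in 86.2% of cells. The other members lay between these ends, as the plot of levels by gene shows.

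**Figure D1:**
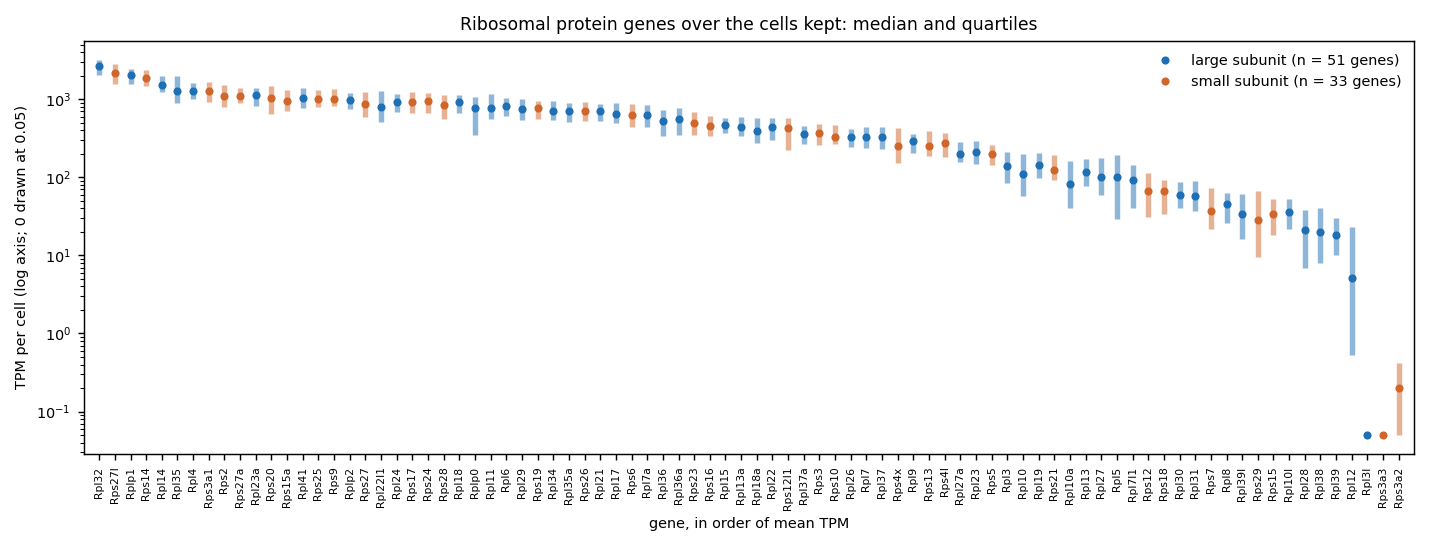
TPM of 84 of the 86 ribosomal protein genes over all cells kept on a log axis, with genes in order of mean TPM. Points are medians and bars run from the lower to the upper quartile, in blue for the large and orange for the small subunit, and all but 3 members at the right end have medians above 5 TPM.

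These levels depend on how reads were divided among near-identical copies. The table lists 236 rows named as -ps copies of ribosomal protein genes, which together averaged 8323 TPM, or 16.3% of the members' own sum. Of 269 genes in GENCODE M21 whose transcripts match a member at 98% identity or more, 96 are listed by that name, and 68 members have at least one such copy. Rps23-ps1 averaged 2241 TPM against 521.8 TPM for Rps23, and Rpl15-ps3 averaged 1720 TPM against 474 TPM for Rpl15. Rps6-ps4 averaged 1377 TPM against 666 TPM for Rps6, and Rps27rt averaged 1764 TPM against 966 TPM for Rps27. In these 4 pairs the copy was listed above its parent, and whether the RNA came from the copy or the parent was not tested. Summed over members and all near-identical rows, the median per cell was 63152 TPM, against 52744 TPM for the members alone.

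Across cells the members' sum ran from 8603 to 100794 TPM, an 11.7-fold range, with quartiles of 45334 and 58795 TPM. It was within 1.5-fold of the median in 87.6% of cells, and 5 cells were under 20000 TPM. Cells S010 (8603 TPM), S012 (10050 TPM) and S014 (11213 TPM), named by the labels, were the lowest, and their mitochondrial transcripts held 27.2%, 24.1% and 27.3% of TPM. In the 8 cells with a mitochondrial share of at least 20% the sum ran from 8603 to 41146 TPM with a median of 20430 TPM. In the other cells it ran from 17205 to 100794 TPM with a median of 53185 TPM, so the groups overlapped but their medians were far apart. Over all cells Spearman's rho of the members' sum with mitochondrial TPM was 0.04, and the part that the 8 cells' RNA quality played was not tested. Cell S126 (21205 TPM), also low, held 152707 TPM of the globin transcript Hba-a2. Shares of 1 total are not independent, since a transcript that takes more of it leaves less to the rest.

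Large and small subunit genes moved together across cells. The rho between their sums was 0.91 over all cells, which share a library protocol and a common scaling to 1000000 TPM. The ratio of large to small subunit TPM had a median of 1.29 and quartiles of 1.21 and 1.37. It reached 2.75 in cell S012, in which Rpl22 was the most abundant member, and otherwise stayed between 1.01 and 1.84.

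The study ordered its germ cells in 3 clusters from 20 feature genes of meiosis and follicle formation, and clusters were rebuilt here along its steps, so they are not the study's own. Cells were chosen by Ddx4 in place of the study's limits on counts, mitochondrial and spike-in shares, and the feature genes, none of them a ribosomal protein gene, were the 19 that its text names with Taf4b added. Without Taf4b, 8 cells moved to cluster 3, and the members' median log2 ratio between clusters 3 and 1 was again 0.19. Cluster 1 (19 cells) had the most Sycp2, an axis protein of meiotic chromosomes, with a mean of 495 TPM. Its mean was 165 TPM in the 95 cells of cluster 2 and 62.3 TPM in the 31 cells of cluster 3. Zp3, which encodes a protein of the oocyte coat, averaged 0.0943, 18.6 and 580.1 TPM in the same order. Sycp2 and Zp3 are both feature genes, and the direction of the cluster order was set by Sycp2, Stag3 and Taf7l. Their differences therefore follow from how the clusters were made. The germ cell markers include Kit, also a feature gene, and Ddx4, by which cells were kept. The summed germ cell markers had medians of 3518, 4948 and 4183 TPM, and the 8 pregranulosa markers of 0.472, 0.615 and 0.557 TPM, with Foxl2 at least 1 TPM in 5 cells. The stroma markers had medians of 4.35, 0.612 and 0.355 TPM with highest cells of 270.1, 379 and 33 TPM, and the blood and endothelium markers 59.5, 83.9 and 29.9 TPM with highest cells of 324516, 48582 and 43741 TPM. Coding genes at 1 TPM or more numbered 7345, 7051 and 8269 in the median cell, and spike-in TPM had medians of 10423, 12182 and 6375. The part of these differences in the results below was not tested.

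As a share of TPM, the members' sum overlapped between the clusters and was lowest in cluster 2. The median of cluster 3 lay above the upper quartile of cluster 2 (55754 TPM). For the large subunit the quartiles were 24127 and 31240 TPM in cluster 2 and 31321 and 37406 TPM in cluster 3, just apart. For the small subunit they were 18615 and 24312 TPM against 22882 and 27343 TPM, and overlapped. The members' sum averaged 54315 ± 20270, 48097 ± 11678 and 56512 ± 15694 TPM in clusters 1, 2 and 3 (SD over cells), with medians of 57770, 49488 and 58675 TPM. The cells of cluster 1 ran from 21205 to 100794 TPM, those of cluster 2 from 11213 to 68198 TPM and those of cluster 3 from 8603 to 78768 TPM, so the ranges overlapped over most of their length. The ratio of large to small subunit TPM had medians of 1.26, 1.28 and 1.36.

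**Figure D2:**
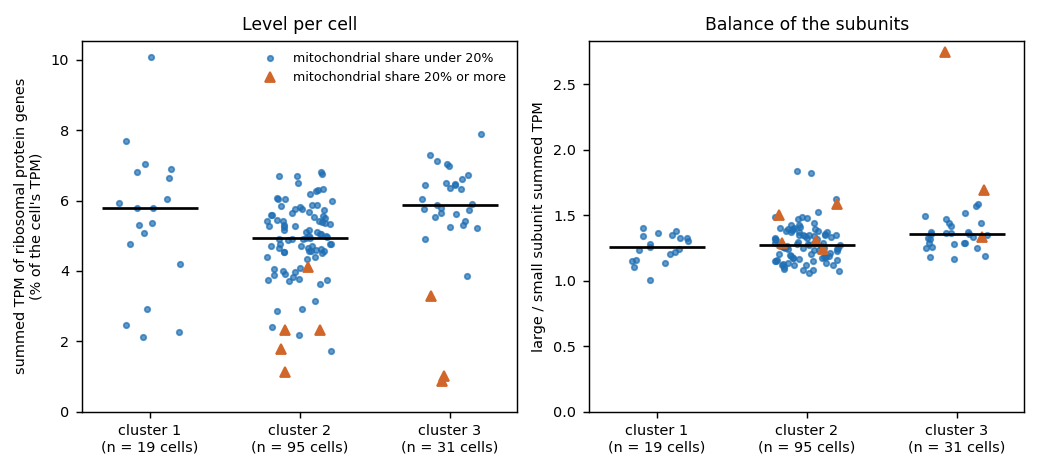
Left, summed TPM of the ribosomal protein genes as a percent of each cell's TPM, and right, the ratio of large to small subunit TPM, with 1 point per cell in each of the 3 clusters and a line at the median. Orange triangles are the 8 cells with a mitochondrial share of 20% or more, which lie low in the left panel, 5 of them in cluster 2 and 3 in cluster 3.

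Single members differed more than the sum. With 1 sample there is no test, so a member was called higher or lower where its mean TPM, with 1 TPM added, differed by 1.5-fold or more, a log2 ratio of 0.58. The added 1 TPM understates the ratio of low genes. From cluster 1 to cluster 2, 6 of 84 members were higher and 7 lower, while 25.2% of the 11747 coding genes with a mean of at least 1 TPM were higher and 21.1% lower. From cluster 2 to cluster 3, 16 members were higher and 5 lower, against 16.3% and 31.6% of coding genes. From cluster 1 to cluster 3, 17 were higher, 15 lower and 52 between, against 26.7% and 36.6% of coding genes. Without cell S106 the lower count from cluster 1 to cluster 2 was 11, and without cell S111 that from cluster 2 to cluster 3 was 8. On estimated reads scaled to 1 total per cell these 2 lower counts were 2 and 3, where 20.6% and 26.4% of coding genes were lower. By TPM most members thus stayed within 1.5-fold, and the share called lower was below that of coding genes in each comparison. Most coding genes were scarcer than the members. At coding lengths over 300 and up to 450 bases, the median of mean TPM was 38.9 for other coding genes and 645.5 for members. No background of matched level was used, and the part of level in these shares was not tested. Scaled to spike-ins, most members passed 1.5-fold in both comparisons with cluster 3. Under that scaling 52.6% of coding genes were higher and 9.05% lower from cluster 2 to cluster 3, and 46.8% and 18.5% from cluster 1 to cluster 3.

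The members' median log2 ratio was -0.12, 0.23 and 0.19 in these comparisons, and that of coding genes 0.01, -0.24 and -0.19. The distance between members and coding genes depended on the average used: with the mean of log2(TPM + 1) per cell, the members' medians were -0.13, 0.15 and 0.10, and those of coding genes -0.11, 0.11 and 0.00. On estimated reads scaled to 1 total per cell in place of TPM, the split between clusters 3 and 1 was 23 higher and 8 lower, where 32% of coding genes were higher and 32.1% lower. Scaled to the spike-ins instead, 59 members were higher and 4 lower, with a median of 1.04, where 46.8% of coding genes were higher and 18.5% lower, with a median of 0.49. The direction of a member between clusters therefore describes its share of a cell's mRNA, and by spike-ins both the members and coding genes as a whole were higher in cluster 3.

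Both subunits had members called in each direction. Between clusters 3 and 1 the 51 large subunit members had a median log2 ratio of 0.25, with 10 higher (19.6%) and 11 lower (21.6%). The 33 small subunit members above 1 TPM had a median of 0.08, with 7 higher (21.2%) and 4 lower (12.1%), beside 26.7% and 36.6% of coding genes. As a share of the members' own total, which no scaling between cells affects, 18 members were higher and 14 lower in cluster 3, and 76 of 84 members had the same call as by TPM.

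**Figure D3:**
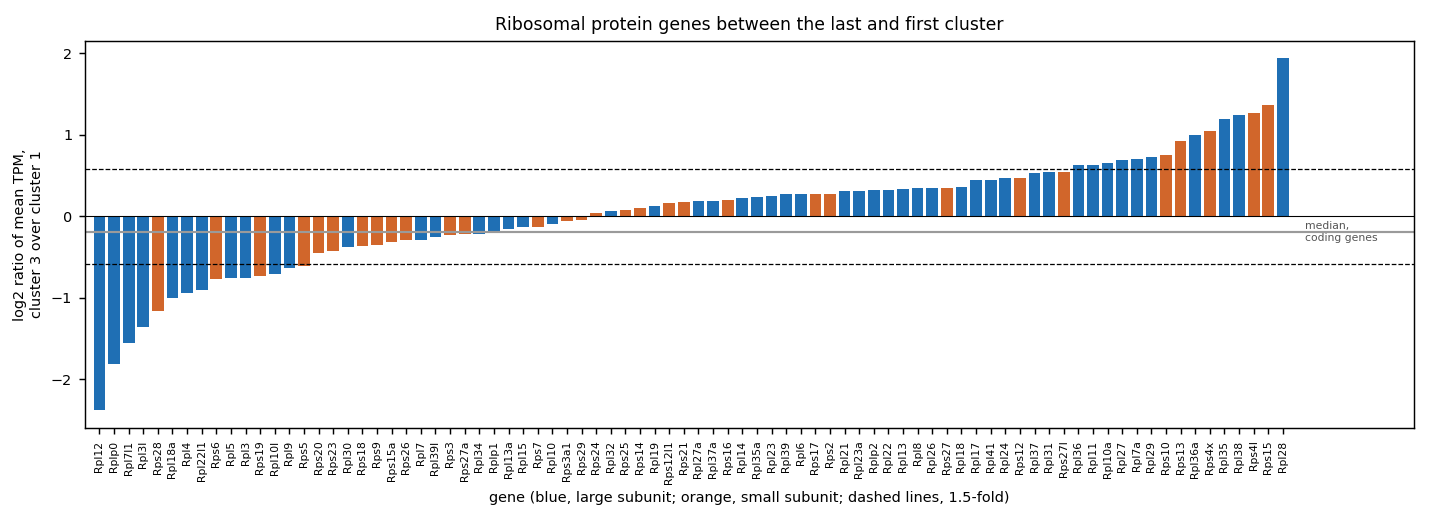
Log2 ratio of mean TPM between cluster 3 and cluster 1 for 82 of the 84 ribosomal protein genes with a mean of at least 1 TPM, with dashed lines at 1.5-fold and a grey line at the median of coding genes. The bars run from Rpl12 at -2.38 to Rpl28 at 1.94, and large (blue) and small (orange) subunit genes lie at both ends.

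The 5 members with the lowest ratio between clusters 3 and 1 were Rpl12, Rplp0, Rpl7l1, Rpl3l and Rps28. Rplp0 (ENSMUSG00000067274, chr5:115559467-115563727, GRCm38), the scaffold that anchors the acidic stalk, ran from 484 to 3334 TPM with a median of 1395 TPM in cluster 1. In cluster 2 it ran from 1.41 to 2387 TPM with a median of 865 TPM, and in cluster 3 from 100.7 to 1463 TPM with a median of 342 TPM. Its cells thus stepped down from cluster to cluster, and the upper quartile of cluster 3 (566 TPM) lay below the lower quartile of cluster 1 (971 TPM) although the full ranges overlapped. The log2 ratio was -1.81, a 3.5-fold lower mean, and lay between -2.06 and -0.82 under the alternatives tried.

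Rps28, near the mRNA exit channel, had medians of 1327, 909 and 569 TPM in clusters 1, 2 and 3. Its cells ran from 398 to 2422 TPM in cluster 1 and from 19.5 to 1143 TPM in cluster 3, and its log2 ratio was -1.16, which was -0.36 and within 1.5-fold when scaled to spike-ins. Rpl7l1, a relative of Rpl7 known from assembly of the large subunit, had medians of 151, 105.2 and 47.2 TPM and a log2 ratio of -1.55. Both genes kept overlapping ranges, while their interquartile ranges in clusters 1 and 3 were apart.

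Rpl12 was scarce in each cluster, with a read in 16 of 19, 83 of 95 and 26 of 31 cells. Its medians were 11.7, 6.74 and 1.45 TPM, its highest cells 135.9, 189.7 and 37 TPM, and its log2 ratio was -2.38, which was -0.80 with clusters made from the 2000 most variable genes. For Rpl3l the medians were 0 in each cluster, with a read in 5 of 19, 9 of 95 and 2 of 31 cells, so its log2 ratio of -1.36 describes a few cells. Among other members called lower were Rpl4 (-0.94), which lines the peptide tunnel, Rpl3 (-0.76), near the peptidyl transferase centre, Rps6 (-0.77), the substrate of S6 kinase, and Rps19 (-0.73), the first gene linked to Diamond-Blackfan anaemia and singled out after its values were seen. Scaled to spike-ins, these ratios were -0.03, 0.08, 0.02 and 0.06, so their direction held only for the share of a cell's mRNA. With its near-identical row Rps6-ps4 added, Rps6 stood at -0.40 and within 1.5-fold.

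Among the members with the highest ratios were Rpl28, Rps15 and Rps4l. Rps15, in the head of the small subunit, had medians of 22.6, 30.4 and 52.8 TPM, with cells from 9.5 to 46.2 TPM in cluster 1 and from 26.9 to 107.8 TPM in cluster 3, and a log2 ratio of 1.37. The ranges of these cells overlapped, but the lower quartile of cluster 3 (43.4 TPM) was above the median of cluster 1. Rpl28, a large subunit protein that budding yeast lacks, had medians of 10.6, 17.2 and 54.1 TPM and a log2 ratio of 1.94, the highest of the members. With its near-identical row Rpl28-ps1 (133.9 TPM on average) added, that ratio was 1.27. Rpl35 (1.19) and Rpl38 (1.25), the latter singled out after its values were seen, were called higher as well, and both, like Rpl28, begin with a pyrimidine tract in the sequences above.

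By TPM a tract at the start did not go with one direction of the ratio. Of the 13 members with a tract 4 were higher and 1 lower between clusters 3 and 1, with a median log2 ratio of 0.24 and a range from -0.77 (Rps6) to 1.94 (Rpl28). The lower call, of Rps6, was lost with clusters from variable genes, with Rps6-ps4 added and when scaled to spike-ins. With clusters from variable genes the higher call of Rps10 was lost too. The 49 members matched without a tract had a median of 0.19, with 8 higher and 11 lower, and of coding genes 26.7% were higher and 36.6% lower. That group can hold tracts annotated a few bases off. At a start of Rps24, for example, C and T bases run across the annotated position, where the base is a T. The 2 groups are thus not a clean split.

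The interquartile ranges of clusters 1 and 3 were apart for 20 members, 15 of them higher in cluster 3 and 5 lower. For coding genes those shares were 8.33% and 6.33%, and for members 17.9% and 5.95%. The 5 lower ones were Rplp0, Rpl4, Rps28, Rps6 and Rpl7l1. From cluster 2 to cluster 3 it was so for Rpl36a, Rpl7a, Rps13, Rpl11 and Rps10, all higher (5.95% of members, against 2.73% of coding genes), and from cluster 1 to cluster 2 for Rpl4 alone, which was lower (1.19% of members, against 0.749% of coding genes).

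Proteins that sit together in the ribosome did not share one pattern. In the acidic stalk, Rplp0 was lower by log2 -1.81 while Rplp1 (-0.21, and 0.59 when scaled to spike-ins) and Rplp2 (0.32), which bind to it as dimers, were within 1.5-fold. Rpl12, at the base of the stalk and scarce in each cluster, was lower like Rplp0 (-2.38). The cells of Rplp1 had medians of 2420, 1882 and 2206 TPM in the 3 clusters, and those of Rplp2 of 1053, 894 and 1214 TPM. In the 5S particle, whose free form is known to bind Mdm2, Rpl11 was higher (0.63) and Rpl5 lower (-0.76, but 0.06 when scaled to spike-ins). Of 9 proteins at the peptide tunnel and its exit, Rpl35 was higher, Rpl4 lower and 7 between, with a median of 0.32. Rpl4 was within 1.5-fold when scaled to spike-ins. Of 5 proteins at the mRNA entry and exit, Rps28 was lower, though within 1.5-fold when scaled to spike-ins, and 4 were between. Among all coding genes 26.7% were higher and 36.6% lower between clusters 3 and 1. Rps27a, made as a fusion with ubiquitin, had a log2 ratio of -0.22, which was 0.74 when scaled to spike-ins.

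Among 19 members in which human mutations cause Diamond-Blackfan anaemia, 4 were higher (Rpl35, Rpl11, Rps10, Rpl27) and 4 lower (Rps28, Rps19, Rpl5, Rpl9) between clusters 3 and 1, of which Rps28 alone stayed below 0 (-0.36) when scaled to spike-ins. The calls of Rpl11, Rpl27, Rpl9 and Rps19 were each lost without 1 cell: without cell S010 the ratio of Rpl27 was 0.55, without cell S002 those of Rps19 and Rpl9 were -0.57, and without cell S018 that of Rpl11 was 0.56. Their median log2 ratio was 0.24, close to the 0.19 of all members, and among all coding genes 26.7% were higher and 36.6% lower.

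Second gene copies were listed at or above the level of several parent genes. Rps27l held 70.2% of the TPM of the pair with Rps27 and was higher than Rps27 in 14 of 19, 90 of 95 and 27 of 31 cells of clusters 1, 2 and 3. Its share was 62.6%, 73.5% and 65.5% in the same clusters. That majority depended on how reads were divided between Rps27 and its near-identical row Rps27rt: with both rows summed, Rps27l held 45.5%, and 35%, 47.5% and 45.9% by cluster, and was the higher one in 0 of 19, 41 of 95 and 10 of 31 cells. The transcripts of Rps27l and Rps27 are 79.4% identical over 218 bases, so reads can be told apart in most places.

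Rpl22l1 took 68.1% of its pair with Rpl22 and was the higher one in 18 of 19, 86 of 95 and 19 of 31 cells. Its share was 72.8%, 71% and 53.5% in clusters 1, 2 and 3. In cluster 1 its cells ran from 294 to 2758 TPM with a median of 1256 TPM, and in cluster 3 from 122.9 to 1272 TPM with a median of 607 TPM, a log2 ratio of -0.90 (-0.01 when scaled to spike-ins). Rpl22 had medians of 423 and 536 TPM in the same clusters, a log2 ratio of 0.32, so the pair drew nearly level in cluster 3.

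Rpl39l and Rpl10l are known from testis, where Rpl10l stands in for the X-linked Rpl10 in spermatocytes. Here Rpl39l averaged 44.7 TPM and Rpl39 24 TPM, and Rpl39l was the higher one in 15 of 19, 73 of 95 and 19 of 31 cells. Rpl10l averaged 40.4 TPM, had a read in 97.9% of cells and was higher than Rpl10 in 32, of which 28 were in cluster 2 and none in cluster 3. Its log2 ratio between clusters 3 and 1 was -0.71, which was within 1.5-fold with Ward clusters (-0.55), on scaled reads (-0.54) and by spike-ins (-0.24). That of Rpl10 was -0.09, and 0.38 with clusters from variable genes. Rpl10 itself averaged 154 TPM and its copy row Rpl10-ps1 922 TPM, so the level of Rpl10 is the uncertain one of the pair.

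Rps4l, an autosomal processed copy, and the X-linked Rps4x averaged 284 and 303 TPM and are 80.2% identical over 786 bases. Both were higher in cluster 3 than in cluster 1, by 1.27 and 1.05 on the log2 scale. Rpl7l1 took 30.9% of its pair with Rpl7 in cluster 1 and 15.6% in cluster 3, and Rpl3l at most 1.44% of its pair with Rpl3 in any cluster. Rps12 and Rps12l1 share 100% of 399 bases, so their means of 78.1 and 418 TPM cannot be told apart. Rps3a2 and Rps3a3 are over 98% identical to Rps3a1 (1276 TPM), and the mean of Rps3a3 came from 1 cell, S051, without which its log2 ratio of -2.14 was 0.04.

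The X-linked members were Rpl10, Rpl36a, Rpl39 and Rps4x. Rpl36a had medians of 490.1, 486 and 974.6 TPM in clusters 1, 2 and 3, with a log2 ratio of 1.00, and Rps4x of 236, 219.8 and 519.5 TPM. Rpl39 had a log2 ratio of 0.27, so the X-linked members were split between 2 called higher and 2 between the limits. Among all coding genes 26.7% were higher and 36.6% lower between clusters 3 and 1. With clusters from variable genes Rpl36a stood at 0.55, within 1.5-fold.

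**Figure D4:**
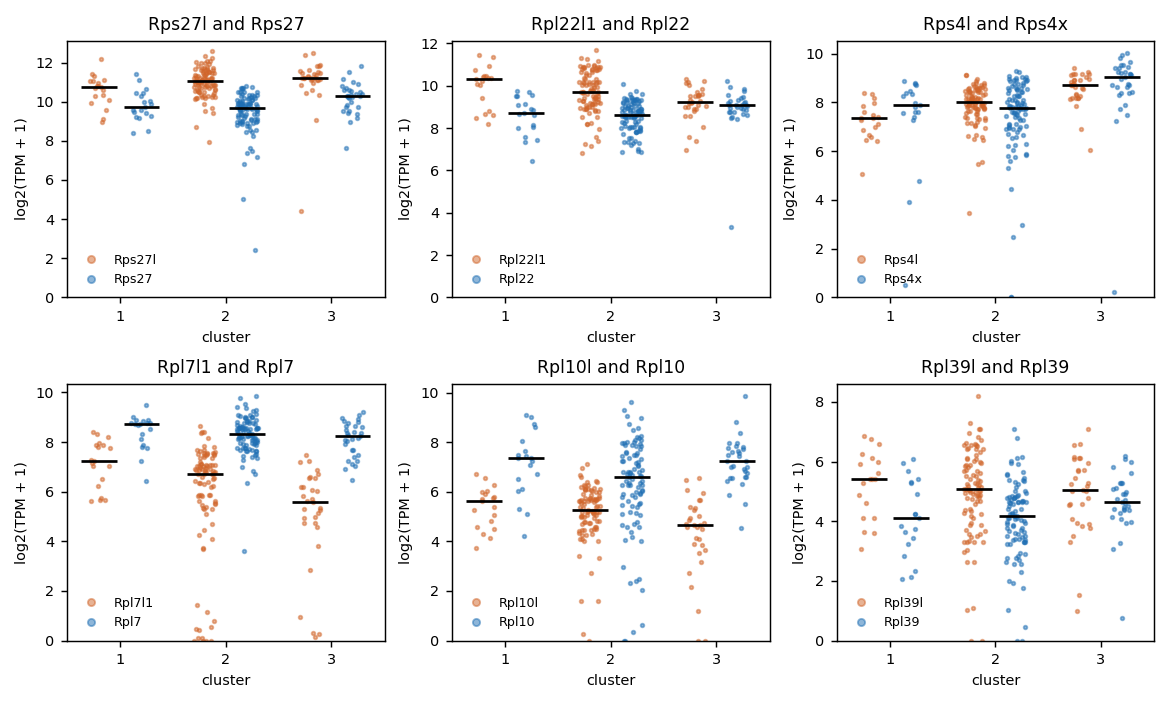
Level of 6 second gene copies (orange) and their parent genes (blue) on the log2(TPM + 1) scale in clusters 1, 2 and 3, with 1 point per cell and a line at the median. Rps27l and Rpl22l1 lie above their parents in most cells, Rpl22l1 and Rpl22 come nearly level in cluster 3, and Rpl7l1 and Rpl10l lie below theirs in most cells.

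Levels of the members moved together from cell to cell. Spearman's rho of a member with the summed TPM of the other members had a median of 0.53 over the 84 members, with quartiles of 0.38 and 0.61, and was above 0.5 for 45 of them. For 11665 other coding genes the rho with the members' sum had a median of 0.04 and quartiles of -0.04 and 0.12, and 17 were above 0.5. Most of these genes were scarcer than the members. Those of over 900 coding bases (n = 8495) had a median of mean TPM of 16, and the 5 members of that length one of 836.3. The part of level in the difference of rho was not tested. All points come from the same cells, libraries and scaling. Within cluster 2 alone the members' median was 0.46, and without the 8 cells of high mitochondrial share it was 0.47.

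Rplp1 (0.84), Rps24 (0.78) and Rpl37 (0.78) followed the sum most closely. Rpl10l (-0.23), Rpl5 (-0.09) and Rpl10a (-0.05) were the only 3 members below 0. Rplp1 and Rps24, a small subunit protein, also had 2 of the 3 steadiest shares of the members' total, with a CV over cells of 0.247 and 0.258, next to Rpl32 at 0.276. Rps7 (3.31), Rpl10a (2.42) and Rpl12 (2.42) had the least steady shares among members with a mean of at least 10 TPM.

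The spread of a share has a technical part that spike-ins show. Spike-ins between 100 and 3000 TPM had a median CV of 0.318 for their share of the spike-in total (n = 10), and the 68 members in that range a median of 0.453. The CVs of these spike-ins ranged from 0.159 to 0.976 and thus overlapped most of the members. At 10 TPM or more the order was the other way, with a median CV of 0.857 for spike-ins (n = 21) and 0.481 for members (n = 83).

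**Figure D5:**
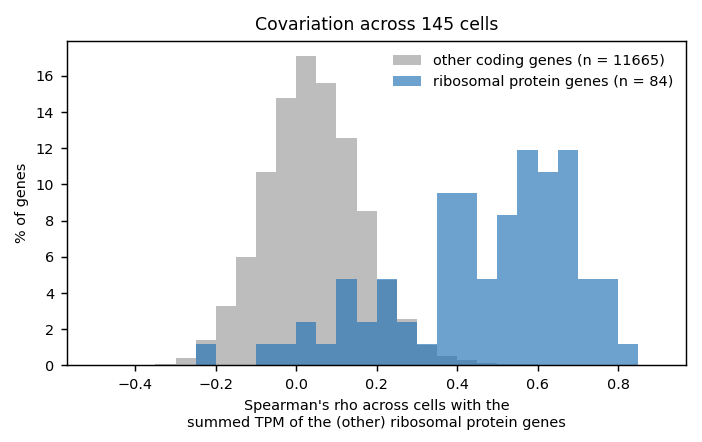
Spearman's rho across the cells kept with the summed TPM of the ribosomal protein genes, as a percent of genes, for 84 ribosomal protein genes (blue, each against the sum of the others) and 11665 other coding genes (grey). The members centre on 0.53 and the other genes on 0.04, with a lower tail of members that reaches -0.23.

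The genes outside the list whose levels followed the members' sum most closely were Snrpg (0.63), a splicing protein, Rps27rt (0.63), and Cox6c (0.61) and Cox7a2 (0.59) of respiratory complex IV, each with the rho over all cells. All 4 have short coding sequences of 228 to 252 bases. Over 11503 other coding genes the rho with the members' sum had a correlation of -0.21 with coding length, and over 82 members -0.28. In the same way the log2 ratio between clusters 3 and 1 had a rho of -0.25 with coding length over members and of -0.09 over other coding genes.

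Members with a coding length of more than 900 bases (n = 5) had a median log2 ratio of -0.94, and the 28 members of over 300 and up to 450 bases one of 0.25. For other coding genes of these lengths the medians were -0.29 (n = 8495) and 0.25 (n = 541). Against coding genes within the members' range of coding lengths (n = 5049), whose median was -0.05, 30.3% were higher and 32% lower, and 20.2% and 17.9% of members. At up to 300 bases the medians were 0.23 for members (n = 10) and 0.54 for other coding genes (n = 225). At over 450 and up to 600 bases they were 0.31 (n = 18) and 0.05 (n = 690). The rho of the ratio with length was thus negative in both sets, but weaker for non-members, and the bins did not run in parallel. The part of length in the results was not tested.

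Some ribosomal genes fall outside the name pattern. Rpl36al, a copy of Rpl36a without the X linkage, had medians of 357, 514 and 798 TPM in clusters 1, 2 and 3 and a log2 ratio of 1.07, beside 1.00 for Rpl36a. Rpsa (-0.25), Fau (0.41) and Gnb2l1, the older name of Rack1 (-0.39), were within 1.5-fold.

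Rpl37rt, a row 99.7% identical to Rpl37 over 344 bases, was singled out after its values were seen. Its cells ran from 0 to 75 TPM with a median of 7.4 TPM in cluster 1. In cluster 2 they ran from 0 to 1879 TPM with a median of 218 TPM, and in cluster 3 from 0.302 to 1624 TPM with a median of 768 TPM. The log2 ratio was 5.32, against 0.53 for Rpl37, and 2.01 for both rows together. The lower quartile of cluster 3 (578 TPM) was above all 19 cells of cluster 1, and which locus the reads came from was not tested. Another row singled out in this way was Rpl10a-ps1, with a log2 ratio of -1.13, where Rpl10a itself had 0.66, and with that row added Rpl10a stood at -0.69.

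Other parts of the translation machinery were counted from lists of known genes. None of 6 elongation factor genes passed 1.5-fold between clusters 3 and 1, with Eef1a1 at -0.53 and Eef1d at 0.55. Of 39 ribosome biogenesis genes 5 were higher and 13 lower, where coding genes had 26.7% higher and 36.6% lower, so the count lower was near the background. The lowest ratios were those of Nop2 (-1.70), Pes1 (-1.68) and Las1l (-1.63), which act in rRNA methylation, large subunit assembly and rRNA processing, and the highest was that of Nop10 (1.27), of the pseudouridylation particles. From cluster 2 to cluster 3, 1 was higher and 12 lower, with a median of -0.35. Of coding genes 16.3% were higher and 31.6% lower, with a median of -0.24. Of 11 polymerase I genes 5 were higher and 5 lower.

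A further list held regulators of ribosomal protein mRNAs and their relatives by name, not all of which are known to act on these mRNAs. Of its 14 detected genes, 5 were higher and 3 lower between clusters 3 and 1, where coding genes had 26.7% higher and 36.6% lower. Those higher were Eif4ebp1 (3.16) and Eif4ebp2 (1.00), translation repressors that mTOR inactivates, Rps6kb2 (1.19), an S6 kinase, Rptor (1.02), the partner of mTOR, and Mycl (0.63). Eif4ebp2 and Mycl reached 1 TPM in only 51 and 21 cells, so their ratios describe a part of the cells. Mtor (-1.42), Pabpc1 (-1.37) and Larp7 (-1.37) were lower, while Larp1 had 0.46. The 77 mitochondrial ribosomal protein genes had a median of 0.06, with 16 higher and 14 lower, beside a median of -0.19 over coding genes.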

How the data were processed

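Single-cell Smart-seq2 libraries of 146 cells were analysed. The authors quantified reads with Salmon against mm10 with spike-in sequences, and the labels name FastQC as well. The deposited files give TPM and estimated counts per gene (the expected counts of Salmon), scaled by the authors to 1000000 TPM per cell with mitochondrial genes and spike-ins included. Gene length columns were not used because they change with the number of transcripts expressed. TPM is relative, so a gene's level moves with the rest of the cell. Cells were clustered from TPM in Seurat 5.3.0 on R 4.3.3 (20 feature genes, 10 components, 20 neighbours, resolution 0.2). Ratios are of mean TPM with a pseudocount of 1, for genes with a mean of at least 1 TPM, and code was tested on simulated data. The genes named were the extremes of level, ratio, rho and share, second copies, X-linked and structural groups, any other member is named as singled out, and genes of other lists were named after their values were seen. Members and lists were chosen with earlier results of these data known. Copies were found with blastn 2.17.0+ in GENCODE M21 transcripts (98% identity, 150 bases). The annotation of the files is older, and 24295 rows with 11.5% of TPM matched no name here. Alternatives were other clusters, scalings, pseudocounts, filters and cells. Intervals cover counting error only, since reads without molecular identifiers are not independent molecules. A few ribosomal genes are not reported here by name, though the sums and counts include them.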

Additional observations from a re-analysis of the deposited data

Results flagged for a closer look

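The cell left out for its Ddx4 level of 0 TPM stood apart in the ribosomal protein genes, which was looked at because no comparison used that cell. Its members summed to 1401 TPM, with a read for 32 of the 86 members among 1410270 estimated reads, while the cells kept had 8603 TPM or more.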

How the results depend on the processing

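The medians of the members kept their sign and stayed under 1.5-fold in the alternatives except as follows. In CPM the median between clusters 2 and 1 was 0.04, the lower counts were 2 (2 over 1), 3 (3 over 2) and 8 (3 over 1), and the summed median was 21181. Among coding genes 20.6%, 26.4% and 32.1% were lower in CPM, in the same order. Divided by spike-in TPM, the medians were 1.25 (3 over 2) and 1.04 (3 over 1), the higher and lower counts 3 and 17 (2 over 1), 75 and 1 (3 over 2) and 59 and 4 (3 over 1), and the median rho 0.84, where all values of a cell share 1 divisor. Under that scaling 20.6% of coding genes were higher and 28.5% lower (2 over 1). The shares were 52.6% and 9.05% (3 over 2), and 46.8% and 18.5% (3 over 1). Spike-in scaling reversed Rpl3 (0.08), Rpl5 (0.06), Rpl9 (0.10), Rplp1 (0.59), Rps3a1 (0.98), Rps6 (0.02), Rps7 (0.72), Rps19 (0.06) and Rps27a (0.74). With clusters from variable genes 2 (2 over 1) and 11 (3 over 1) members were higher, against 17.4% and 21.4% of coding genes. With clusters from 5 components 8 (3 over 2) members were lower, against 30.6% of coding genes. Adding -ps rows or near-identical rows turned Rpl10a to -0.69. Leaving out each cell in turn gave lower counts of 5 to 11 (2 over 1; 11 without cell S106) and of 5 to 8 (3 over 2; 8 without cell S111), and -2.20 to 0.04 for Rps3a3 (0.04 without cell S051). Rpl10a was under 1.5-fold without any 1 of cells S010, S012, S016, S036 or S111, Rpl11 without S016, S018, S036, S106 or S126 (lowest 0.56), Rpl27 without S010 (0.55), Rpl9 without S002, S100 or S103 (highest -0.57) and Rps19 without S002 (-0.57), while Rpl37 passed it without cell S002 or S050, Rps12 without cell S107 and Rps27l without cell S036. Calls also lost under an alternative included Rpl10l (Ward, CPM), Rpl11 and Rpl5 (Ward, variable genes), Rpl22l1, Rpl5, Rpl9 and Rps19 (CPM), Rpl27, Rpl36a, Rpl3l, Rps10 and Rps6 (variable genes), Rps6 and Rpl9 (copies added) and Rpl10a, Rpl27 and Rpl9 (without high-mitochondrial cells). The 19-feature, near-identical and high-mitochondrial alternatives were chosen after seeing the data. For other causes, the cause was not tested. No paired analysis was possible because each cell carries its own number and the groups are clusters of cells. Rpl3l, Rps3a2 and Rps3a3 had reads in 16, 82 and 33 cells, and the part of depth in this was not tested.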
